A study of Arabidopsis thaliana with 6 samples.

Results

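The genes described here are 10 Arabidopsis heat shock chaperones and co-chaperones, out of 13286 genes that had a probe set of their own among the 22746 probe sets tested. They are the HSP70 genes Hsp70-2 (AT5G02490) and AT3G09440, the co-chaperone genes Hop1 (AT1G12270), Hop2 (AT1G62740) and Hop3 (AT4G12400), the heat stress gene HSA32 (AT4G21320), the NudC-domain gene BOB1 (AT5G53400), and AT5G37670, AT1G53540 and ATHSP22.0 (AT4G10250), which were placed with the small heat shock proteins. All 10 were found, each through 1 probe set annotated to that gene alone. The set was chosen from results of the comparison between 35S-PaWRKY1 and empty-vector seedlings, so their differences between these groups are given as a description and were not tested. One group was transgenic 35S-PaWRKY1 Arabidopsis (3 arrays). WRKY proteins are plant transcription factors, and the 35S promoter of cauliflower mosaic virus is strong in most tissues. The level of PaWRKY1 itself was not analysed here. The controls carried the empty vector pCAMBIA 1302 (3 arrays). Both groups were whole seedlings, shoot and root together, aged 7 days after 2 days of seed vernalization, on full-strength MS medium. The labels speak of biological replicates without saying whether each is a line or a sowing of its own, so every error and p-value below measures the spread between these samples. In whole seedlings, a change in the amount of a tissue and a change in the RNA per cell cannot be told apart.

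Heat shock proteins are molecular chaperones that keep other proteins from clumping and help them to fold or refold. Small heat shock proteins hold unfolding proteins without using ATP, HSP70 proteins bind and release them in an ATP-driven cycle that J-domain proteins start and nucleotide exchange factors reset, and HSP90 proteins finish the folding of signalling proteins. Hop proteins carry tetratricopeptide repeats that bind the tails of HSP70 and HSP90 and so pass clients between them. Many of these genes are kept low in unstressed plants and are switched on by heat shock transcription factors, while others are transcribed at all times.

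The deposited values are centred for each probe set on the mean of the 3 empty-vector arrays, so they are differences and not levels, and genes cannot be ranked by expression. They were read as log2 values with a higher value for more transcript, both by convention, and folds hold if the base is 2. Array medians over all probe sets lay between -0.05 and 0.01. With limma and Benjamini-Hochberg adjustment, 7 of 22746 passed an adjusted p of 0.05, which is 0.0308%, and 0 to 1 passed it with any 1 array left out. Of the 10 chaperone genes, 0 passed it and 7 had an unadjusted p under 0.05, against 8.01% of all probe sets, and nothing is read from either count because the genes were chosen on this contrast. Replicate 3 of the controls and replicate 1 of the 35S-PaWRKY1 arrays stood apart for several of these genes, as described below.

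In 7 of the 10 genes every 35S-PaWRKY1 array lay above every empty-vector array: Hsp70-2, AT3G09440, Hop2, Hop3, HSA32, BOB1 and AT5G37670. The same held for 5.34% of all probe sets. In AT1G53540, Hop1 and ATHSP22.0 the groups overlapped, and 0 of the 10 lay wholly below the controls, where 9.17% of all probe sets did. The median difference of the 10 was 0.44, beside -0.04 over all probe sets. Of the 3 differences of 1 or more, 1 each belonged to a Hop, an HSP70 and a small heat shock protein gene. Such a difference was found in 103 of all 22746 probe sets.

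The HSP70 genes encode the ATP-driven chaperones of the set. Hsp70-2 had 0.87, 0.83 and 0.75 in 35S-PaWRKY1 replicates 1 to 3, against 0.20, -0.12 and -0.08 in empty-vector replicates 1 to 3. The 35S-PaWRKY1 arrays were within 0.127 of each other, and a gap of 0.55 separated the lowest of them from the highest control. The difference was 0.82 (SE 0.11, n = 3 per group), which is 1.76-fold if log2. AT3G09440 had 0.62, 1.24 and 1.38 in 35S-PaWRKY1 seedlings and 0.11, 0.10 and -0.21 in the controls. Its controls spanned 0.31, beside 0.32 for Hsp70-2, and 35S-PaWRKY1 replicate 1 was about as far from the controls as from its own group. The difference of AT3G09440 was 1.08 (SE 0.207, n = 3 per group), or 2.11-fold if log2. Cytosolic HSP70 genes of Arabidopsis are close in sequence, and how far each probe set tells them apart was not tested. HSC70-1 (AT5G02500), the next gene after Hsp70-2 on its chromosome, had no probe set of its own in the annotation used.

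The 3 Hop genes, of 1 protein family, differed among themselves. Hop3, which is known in Arabidopsis as the heat-induced member, had 1.09, 2.12 and 2.11 in 35S-PaWRKY1 replicates 1 to 3, against 0.40, 0.43 and -0.83 in empty-vector replicates 1 to 3. Its difference of 1.77 (SE 0.417, n = 3 per group), or 3.41-fold if log2, was the largest of the 10 genes. Control replicate 3 lay far under the other controls, and without it the difference was 1.36. Hop2 had 0.29, 0.51 and 0.46 in 35S-PaWRKY1 seedlings and 0.08, 0.04 and -0.11 in controls, with the groups 0.21 apart at their nearest. Its difference was 0.42 (SE 0.1, n = 3 per group), or 1.34-fold if log2. Hop1 had -0.10, 0.03 and -0.27 in 35S-PaWRKY1 seedlings, against 0.08, 0.07 and -0.15 in controls. The arrays of both groups were interleaved, and the difference of -0.11 (SE 0.115, n = 3 per group) was smaller than the SD within either group, 0.151 for 35S-PaWRKY1 and 0.133 for the empty vector.

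HSA32 and BOB1 stand outside the classical chaperone families. HSA32, which Arabidopsis needs to keep its acquired heat tolerance over a long recovery, had 0.56, 0.43 and 0.37 in 35S-PaWRKY1 seedlings, against -0.08, 0.21 and -0.13 in the controls. The groups did not overlap, with 0.16 between control replicate 2 and the lowest 35S-PaWRKY1 array. The difference of HSA32 was 0.45 (SE 0.117, n = 3 per group), or 1.37-fold if log2. BOB1, a NudC-domain protein needed for development and heat tolerance, had 0.30, 0.48 and 0.35 in 35S-PaWRKY1 seedlings and 0.09, -0.03 and -0.06 in controls. Both groups of BOB1 were tight, and its difference of 0.37 (SE 0.0917, n = 3 per group), or 1.30-fold if log2, was the smallest of the 7 without overlap.

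Small heat shock proteins hold clients until HSP70 refolds them, and the 3 genes of this class showed 3 different patterns. AT5G37670 had 0.43, 1.33 and 1.35 in 35S-PaWRKY1 replicates 1 to 3, against 0.34, 0.39 and -0.72 in empty-vector replicates 1 to 3. The groups were separate by 0.04 alone, since 35S-PaWRKY1 replicate 1 was close to control replicates 1 and 2. The difference was 1.04 (SE 0.368, n = 3 per group), 2.06-fold if log2, while the controls themselves spanned 1.11. Without control replicate 3 the difference of AT5G37670 was 0.68. AT1G53540 had 0.05, 0.49 and 0.65 in 35S-PaWRKY1 seedlings and -0.29, 0.21 and 0.08 in controls, so that 35S-PaWRKY1 replicate 1 fell inside the control range. Its difference was 0.40 (SE 0.194, n = 3 per group), and 0.25 without control replicate 1. ATHSP22.0, a small heat shock protein of the endoplasmic reticulum, had -0.16, -0.06 and -0.11 in 35S-PaWRKY1 seedlings, against -0.07, 0.00 and 0.07 in controls. The lowest control lay just under the highest 35S-PaWRKY1 array, so the groups overlapped narrowly, and the difference was -0.11 (SE 0.0833, n = 3 per group).

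**Figure D1:**
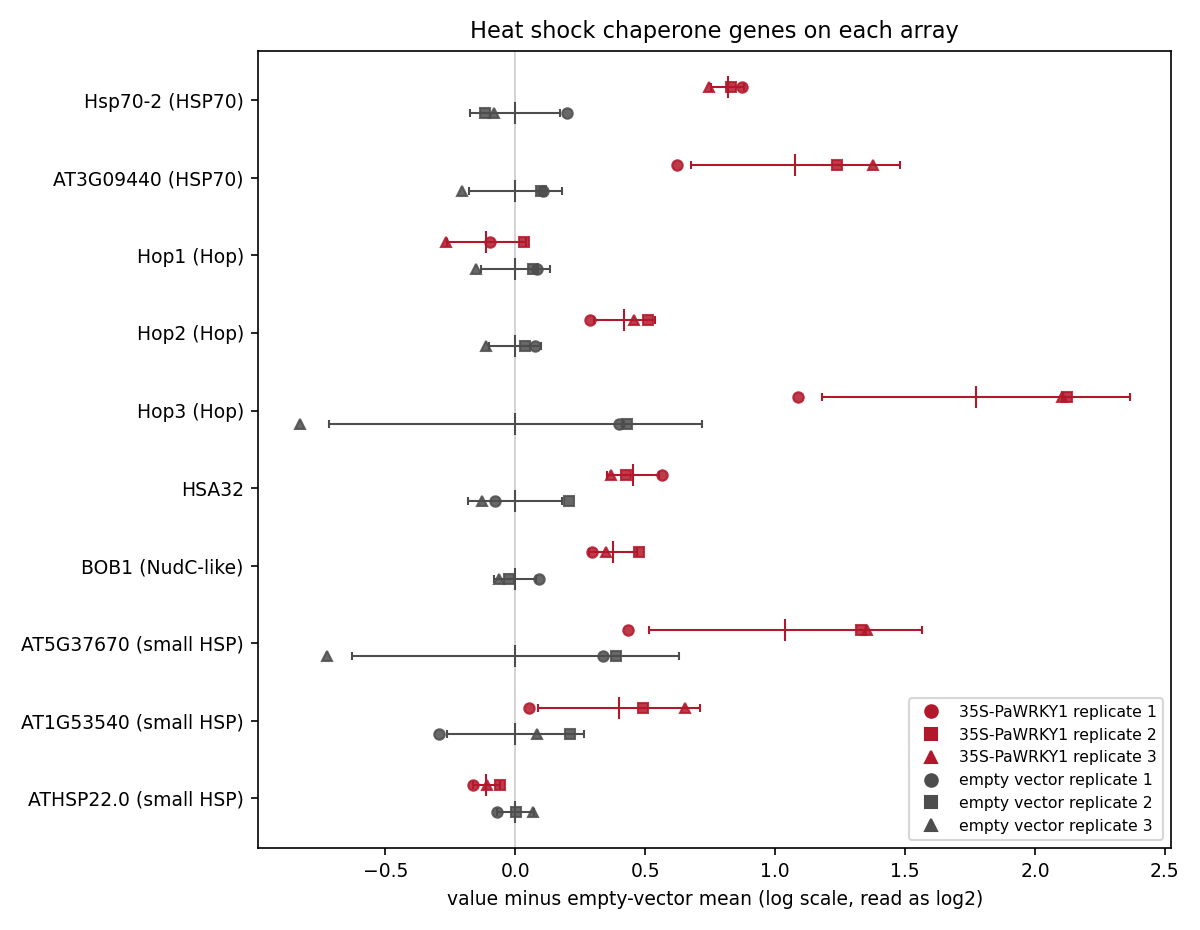
Values of the 10 genes on each array, as the deposited value minus the empty-vector mean on a log scale read as log2, with 35S-PaWRKY1 (red) above empty vector (grey) for each gene, vertical ticks at the group means, bars of 1 SD (n = 3 per group) and symbols for the replicate numbers. Hsp70-2 has a tight 35S-PaWRKY1 group between 0.75 and 0.87, whereas Hop3 and AT5G37670 have control replicate 3 at -0.83 and -0.72 and 35S-PaWRKY1 replicate 1 under the other arrays of its group.

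Ordered by their difference, the genes ran Hop3, AT3G09440, AT5G37670, Hsp70-2, HSA32, Hop2, AT1G53540, BOB1, Hop1 and ATHSP22.0. In 6 of the 9 steps the gap to the next gene was smaller than the larger SE of the pair, so the order of those neighbours is not settled. The other steps were from Hop3 to AT3G09440 (0.69), from Hsp70-2 to HSA32 (0.36) and from BOB1 to Hop1 (0.49). These gaps are a description, since the genes were chosen on the same differences and share the same arrays.

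The spread within a group differed widely among the 10 genes. Hop3 had an SD of 0.593 between 35S-PaWRKY1 arrays and 0.719 between controls, and AT5G37670 had 0.525 and 0.628. These control SDs were at percentiles 98.6 and 97.9 of all probe sets. Hsp70-2 had SDs of 0.0643 and 0.173, and BOB1 had 0.0929 and 0.081. AT3G09440 was uneven, with an SD of 0.402 between 35S-PaWRKY1 arrays, at percentile 94.7, and 0.179 between controls, at percentile 60.6. The medians over the 10 genes were 0.134 for 35S-PaWRKY1 and 0.176 for the empty vector, beside 0.118 and 0.148 over all probe sets, so that high spread belonged to some of the genes and not to the set as a whole.

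The same arrays were low in several genes. Replicate 1 was the lowest 35S-PaWRKY1 array in 7 of the 10 genes, as it was in 30.2% of all probe sets. Replicate 3 was the lowest control in 7 of the 10, as in 34.2% of all probe sets. Both held for Hop3, Hop2, AT3G09440, AT5G37670 and BOB1, which is 5 of 10, where 8.37% of all probe sets had both. Hsp70-2, HSA32 and Hop1 had 35S-PaWRKY1 replicate 3 as the lowest of its group instead. Leaving out an array cannot close a gap between the groups, so the count without overlap could not fall below 7. It was 7 without control replicate 3 and 8 without 35S-PaWRKY1 replicate 1. The differences themselves did move. With all arrays they were 1.77 for Hop3 and 1.04 for AT5G37670. Without control replicate 3 they were 1.36 and 0.68, and without 35S-PaWRKY1 replicate 1 they were 2.11 and 1.34.

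Deviations from the group means correlated across probe sets between arrays of the same number (0.314, 0.194 and 0.453 for replicates 1 to 3). Arrays of the same number were therefore set side by side, although the labels do not state a pairing. Correlations between arrays of different numbers were not computed. Within a number, 35S-PaWRKY1 was above empty vector for all 3 numbers in 8 of the 10 genes, against 12.3% of all probe sets, and below it for all 3 in Hop1 and ATHSP22.0. In the 7 genes without overlap this follows by necessity, and the genes were chosen on this contrast, so the count adds no support. The sizes differed by number. Hop3 was higher by 0.69, 1.69 and 2.94 within replicates 1, 2 and 3, AT3G09440 by 0.51, 1.14 and 1.58, and AT5G37670 by 0.10, 0.94 and 2.08. Hop2 also rose with the number, at 0.21, 0.47 and 0.57, while Hsp70-2 was steadier, at 0.67, 0.95 and 0.83. HSA32 had its largest value, 0.64, within replicate 1, where most of the other genes had their lowest: replicate 1 gave the lowest value in 7 of the 10 genes, as in 27.6% of all probe sets.

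**Figure D2:**
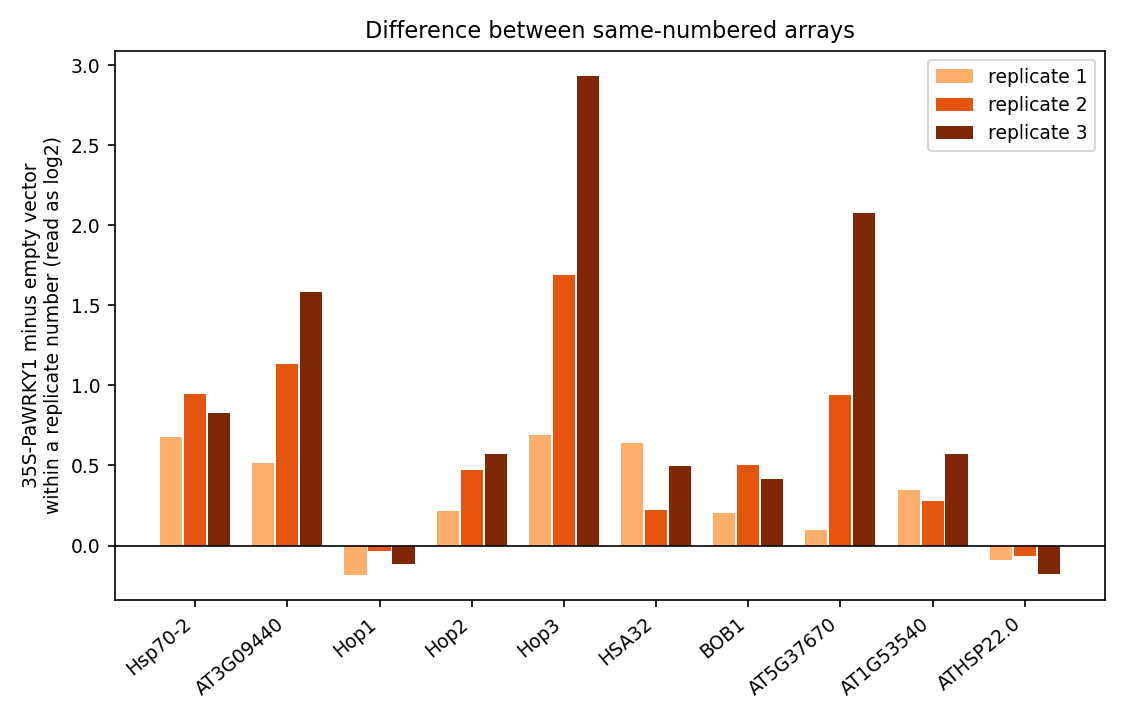
Difference between 35S-PaWRKY1 and empty vector within each replicate number for the 10 genes, 1 bar per number, on a log scale read as log2. The bars are all above 0 for 8 genes and all below 0 for Hop1 and ATHSP22.0, and those of Hop3 and AT5G37670 reach 2.94 and 2.08 within replicate 3.

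The other chaperone and heat stress genes were taken from lists of 145 genes by protein class, of which 54 had a probe set of their own, the 10 genes above included. The other 44 genes had 45 probe sets. The lists were written with earlier results of these data known, so their shares beside those of all probe sets are a description. With limma over all probe sets, 0 of the 45 passed an adjusted p of 0.05, the lowest being 0.225, and 9 had an unadjusted p under 0.05, 8 above and 1 below the controls. That is 20% of the 45, beside 8.01% over all probe sets. The median difference was 0.00. Of the 45, 6 lay wholly above the controls, or 13.3% beside 5.34% of all probe sets. Wholly below lay 5, or 11.1% beside 9.17% of all probe sets. The differences of 1 or more, 7 of 45 beside 103 of all 22746 probe sets, belonged to HSP90 co-chaperone, small heat shock protein, J-domain and HSP70 exchange genes. None of the 7 HSP90 genes, 3 HSP100 genes and 24 heat stress regulators listed was matched, and these were not analysed here.

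Among HSP90 co-chaperones, AT5G48570 (also called ROF2 or FKBP65, a peptidyl-prolyl isomerase) had 2.12, 3.12 and 2.84 in 35S-PaWRKY1 seedlings, against 0.35, 0.77 and -1.13 in controls. It did not overlap between the groups, and its difference of 2.69 (SE 0.5, n = 3 per group; adjusted p = 0.332 in limma) exceeded that of Hop3. SGT1A, a co-chaperone of plant immune receptors, had 0.98, 1.16 and 1.15 in 35S-PaWRKY1 seedlings against 0.30, 0.09 and -0.39 in controls, a difference of 1.10 (SE 0.18). AT3G12050 had 0.46, 0.68 and 0.69 in 35S-PaWRKY1 seedlings against -0.03, 0.05 and -0.02 in controls, a difference of 0.61 (SE 0.0949), and its controls were tighter than those of BOB1. The adjusted p in limma was 0.248 for SGT1A and 0.225 for AT3G12050. AT4G02450 was at -0.15 (SE 0.106). The cyclophilin gene SQN had 2 probe sets, both at -0.09.

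Small heat shock protein genes were on both sides. AT5G51440 was 1.77 above the controls (SE 0.466, n = 3 per group; adjusted p = 0.4 in limma), with 1.18, 2.35 and 1.79 in 35S-PaWRKY1 seedlings against 0.23, 0.73 and -0.95 in controls. AT2G29500 was at 1.79 (SE 0.602) and AT2G19310 at 0.69 (SE 0.301), and both had a control inside the 35S-PaWRKY1 range. AT4G21870 ran the other way: it had -0.86, -0.76 and -0.69 in 35S-PaWRKY1 seedlings and -0.45, 0.01 and 0.44 in controls, a difference of -0.77 (SE 0.213, n = 3 per group; adjusted p = 0.417 in limma). The other 3 genes of this class were at 1.28, 0.19 and -0.10. Without control replicate 3, AT2G19310 was at 0.44 and the gene at 1.28 (AT1G54050) was at 0.78.

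The helpers of the HSP70 cycle also lay on both sides of the controls. Among J-domain genes, AT2G20560 was at 1.55 (SE 0.558) and AT4G28480 at 0.43 (SE 0.152), while AT1G10350 was at -0.21 (SE 0.103) and ATERDJ2A, of the endoplasmic reticulum membrane, at -0.28 (SE 0.15). Without control replicate 3, AT4G28480 was at 0.27 and ATERDJ2A at -0.17. Among the exchange factors, Fes1A had 0.28, 1.90 and 2.21 in 35S-PaWRKY1 seedlings and -0.06, 0.51 and -0.45 in controls, a difference of 1.46 (SE 0.509). Its paralogues Fes1B and Fes1C were at -0.24 (SE 0.13) and -0.33 (SE 0.138). The lowest adjusted p among these genes was 0.532 in limma.

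The remaining classes lay near 0. The 10 chaperonin genes, whose products form folding chambers, ran from -0.18 for AT5G16070 (SE 0.0775) to 0.27 for Cpn60beta2 (SE 0.167), and AT1G24510 and AT3G02530 were at -0.11 and -0.12. The endoplasmic reticulum genes were at 0.12 for the unfolded protein regulator BZIP60 (SE 0.251), 0.04 for the calreticulin gene CRT1b (SE 0.142) and -0.03 for AT5G07340 (SE 0.138). Their sign turned with 1 array: without control replicate 3 BZIP60 was at -0.16 and CRT1b at -0.09, and without 35S-PaWRKY1 replicate 3 AT5G07340 was at 0.11. The other 2 matched HSP70 genes, AT4G16660 and AT1G11660, were both at -0.11, against 0.82 and 1.08 for Hsp70-2 and AT3G09440. AT4G16660 lay wholly below the controls by a gap of 0.01, as did the chaperonin gene AT5G16070 by 0.09. In these classes, no probe set outside the 10 genes lay wholly above the controls. Only 4 of the 18 HSP70 genes listed were matched, Hsp70-2 and AT3G09440 included, so most of this class was not seen. The other NudC-domain genes AT5G58740 and AT4G27890 were at -0.15 and -0.14, against 0.37 for BOB1. Leaving out 1 array turned the sign of 13 of the 45 probe sets, all with a difference of at most 0.138 in size, AT1G11660, AT4G27890 and 1 of the SQN probe sets among them, and 32 of the 45 moved by over 1.5 times or turned.

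**Figure D3:**
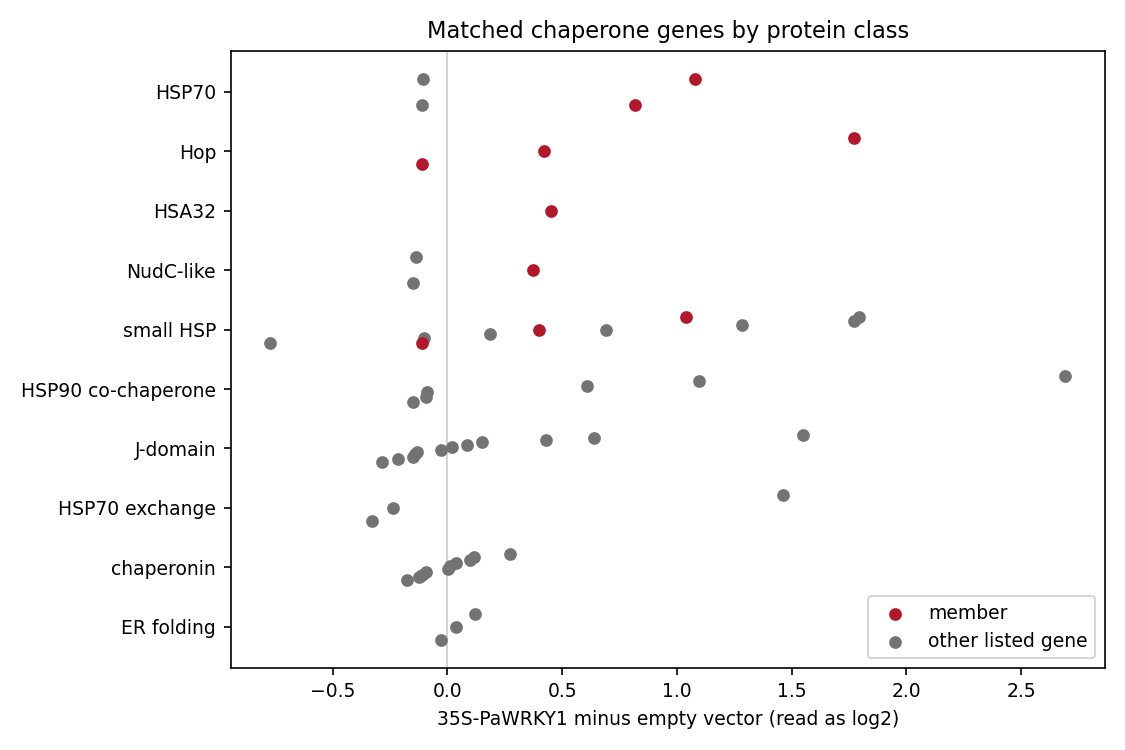
Difference between 35S-PaWRKY1 and empty vector (log scale read as log2) for every matched chaperone gene, 1 row per protein class, with the 10 genes of the set in red and the other listed probe sets in grey. Chaperonin and endoplasmic reticulum genes lie between -0.18 and 0.27, and the widest class is that of the HSP90 co-chaperones, which reaches 2.69.

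Across the chaperone genes, differences tended to be higher where control replicate 3 was lower. Both measures use that array, and how much of their correlation comes from this was not tested. Over the 45 other listed probe sets the Pearson correlation between the value of that control and the difference was -0.86, and over the 10 genes it was -0.79, beside -0.27 over all 22746 probe sets. On the other side, the deviation of 35S-PaWRKY1 replicate 1 from its group mean correlated with the difference by -0.78 over the 45 and -0.76 over the 10, beside 0.00 over all probe sets. These values describe genes that share the same 6 arrays and are no test. Some genes with large differences also had controls far apart, as AT5G48570 with a control SD of 0.998, AT2G29500 with 1.03 and AT2G20560 with 0.876. Hsp70-2, AT3G09440 and AT3G12050 were high in 35S-PaWRKY1 seedlings with control SDs of 0.173, 0.179 and 0.0433. What set control replicate 3 and 35S-PaWRKY1 replicate 1 apart was not tested.

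**Figure D4:**
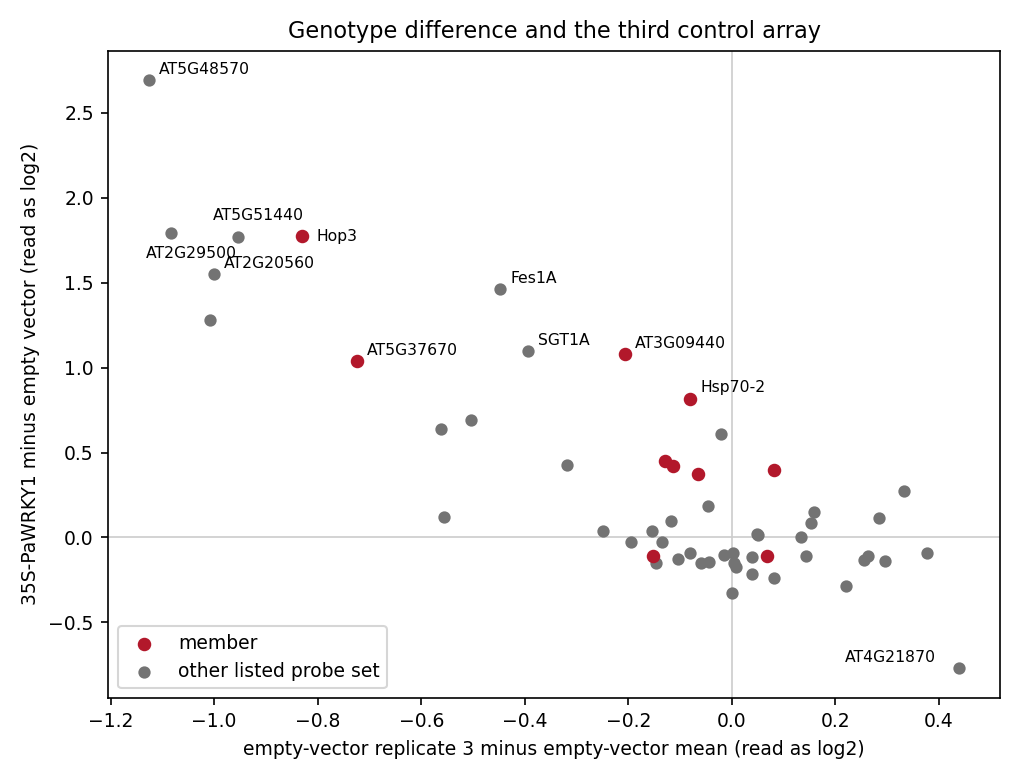
Difference between 35S-PaWRKY1 and empty vector against the value of empty-vector replicate 3, both on a log scale read as log2, for the 10 genes (red) and the 45 other listed probe sets (grey). AT5G48570, with this control at -1.13, has a difference of 2.69, and AT4G21870, with it at 0.44, has -0.77, while BZIP60, with it at -0.56, has 0.12.

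Profiles over the 6 arrays were also set side by side by their root mean square difference. Among 1553 probe sets of named genes outside the chaperone lists, the nearest to Hsp70-2 were PUB26 (0.138), the thionin gene THI2.2 (0.147) and the glucosyltransferase gene UGT74B1 (0.168). Within the set, the nearest to Hsp70-2 was Hop2, at 0.308. A smallest distance over 1553 candidates tends to be lower than one over the few genes of the set. Such distances also depend on the size of the difference, on which the genes were chosen, so they are a description. The nearest named genes to AT5G37670 were XTH32 (0.322), ATSBT5.2 (0.344) and the clock gene GI (0.354), and AT3G09440 was nearer than these, at 0.274.

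Markers of shoot and root gave a limited check of the seedlings' make-up, since centred values cannot show whether a marker is present. Of 10 shoot markers, 5 were matched, with differences from -0.07 to 0.09, and their summed values ran from 0.06 to 0.27 in 35S-PaWRKY1 seedlings and from -0.17 to 0.14 in controls. Of 9 root markers, 2 were matched, EXPA7 at -0.04 and XTH26 at -0.39, with sums from -0.73 to -0.27 in 35S-PaWRKY1 seedlings and from -0.41 to 0.22 in controls. XTH26 had an unadjusted p of 0.0179 and an adjusted p of 0.505 in limma, and the other 6 matched markers had an unadjusted p above 0.05. The sums of both lists overlapped between the groups, and their part in the chaperone differences was not tested.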

How the data were processed

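Biotin-labelled RNA of 6 samples was hybridised to Affymetrix Arabidopsis arrays. The deposited log2 values, so read by convention, come from a pipeline for which MAS5 and RMA are listed, per the submitters' processing notes, with no role stated. Tested on the file, the 3 controls average 0 for each probe set (largest absolute mean 1.3e-06). How arrays were normalized to each other is not given in the sources used here, and nothing was rescaled. Of 22810 probe sets, 64 Affymetrix controls were left out. The platform annotation from GEO, possibly outdated, gives 1 gene for 13513 probe sets, several for 503 and none for 8730. Those with several give no gene names here. Symbols were updated through RefSeq's TAIR10.1 table, where 77 single-gene probe sets had no match.

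Two-sided tests used limma (version 3.58.1, R version 4.3.3; lmFit, then eBayes), the Benjamini-Hochberg adjustment ran across all 22746 probe sets, and the threshold was 0.05. SEs are those of the moderated fit. A simulation with independent arrays checked the mean estimates of this fit, but not its SEs. Precision is limited by having 3 arrays per group. The members and lists were chosen with earlier results of these data known. Of each class of other genes, the 4 with the smallest unadjusted p were named, and for Hsp70-2 and AT5G37670 the 3 nearest named profiles. SQN, AT1G54050, AT5G02500 and the chromosomal neighbours were named after their values or matches were seen. Same-numbered arrays were set side by side because all 3 correlations of their deviations (0.314, 0.194 and 0.453) exceed 0.1. The labels do not state a pairing, and the values reported come from the fit without the block. Alternatives were other scalings, array weights, robust eBayes, the replicate block, a minimum difference of 1 and each array left out. Promoter and protein sequences were not used here. Plots were made in matplotlib (version 3.10.9, Python version 3.11.15).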

Additional observations from a re-analysis of the deposited data

Results flagged for a closer look

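Among the probe sets tested but outside the gene lists, 1 is annotated to 2 genes, both in the list of small heat shock proteins, and no gene was named from it. It had 1.14, 3.35 and 3.33 in 35S-PaWRKY1 replicates 1 to 3, against 0.07, 1.40 and -1.47 in empty-vector replicates 1 to 3. Its difference of 2.60 (SE 0.846, n = 3 per group; adjusted p = 0.507 in limma) was close to the 2.69 of AT5G48570, but control replicate 2 lay above 35S-PaWRKY1 replicate 1, so the groups overlapped. It is given here because the descriptions by gene and by class leave it out. Control replicate 3 and 35S-PaWRKY1 replicate 1 were the lowest arrays of their groups here too, as in Hop3.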

How the results depend on the processing

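The 10 genes kept the sign of their difference under median centring, equal quantiles, array weights, each array left out and both replicate 3 arrays left out, the last chosen after seeing the data. The replicate block cannot move these balanced differences. Of the 100 other values, 99 moved by less than the SD within groups, which is wide for Hop3 and AT5G37670, and the other was Hsp70-2 after equal quantiles, at 0.66. Without both replicate 3 arrays AT5G37670 was at 0.52 and Hop3 at 1.19. Leaving out 1 array moved 3 genes by over 1.5 times: AT5G37670 was at 0.68 without control replicate 3, AT1G53540 at 0.25 without control replicate 1, and Hop1 at -0.07 without control replicate 1, -0.19 without control replicate 3, -0.18 without 35S-PaWRKY1 replicate 2 and -0.03 without 35S-PaWRKY1 replicate 3. ATHSP22.0 was at -0.07 after equal quantiles. The number of genes without overlap, 7, was 6 after equal quantiles. With 1 array left out, which cannot lower this number, it was 7 to 8. Equal quantiles were set on values already centred on the controls, which by itself makes control arrays narrower. Array SDs were 0.165 to 0.239 for controls and 0.275 to 0.286 for 35S-PaWRKY1. Equal quantiles draw these widths together, so smaller differences or counts after them are no independent check. The count of 7 called probe sets was 0 after equal quantiles (1022 at an unadjusted p under 0.05 in limma), 11 with array weights, 1 with robust eBayes, and 0 to 1 with 1 array left out (1062 at an unadjusted p under 0.05 without 35S-PaWRKY1 replicate 2, where it was 0, and 1643 to 1936 without any one of the other arrays). It was 7 after median centring and with a minimum difference of 1. With the replicate block it was 6. The count among the 45 other listed probe sets was 0 under every alternative run, the replicate block included, with 5 to 15 at an unadjusted p under 0.05 in limma. The filter on dim probe sets was not run, since centred values give no level.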

Other observations

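The genes next to the 10 on their chromosomes, in RefSeq's order, were looked at as well. Of 20 neighbours, 9 had a probe set of their own, with a median difference of -0.05. ARLA1A, next to AT5G37670, lay wholly above the controls, with 0.32, 0.53 and 0.40 in 35S-PaWRKY1 seedlings against -0.08, 0.18 and -0.11 in controls. AT3G09430, next to AT3G09440, lay wholly below them, with -0.30, -0.36 and -0.39 against -0.06, 0.01 and 0.05. The other 7 overlapped between the groups.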
